A study of Mus musculus with 12 samples.

Results

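Gene expression was compared between 8 lungs in which Yy1 or Dicer was floxed and Cre was driven from the Shh locus, taken as 1 group, and 4 control lungs, all from E14.5 mouse embryos, an age at which the airways are still branching. The comparison used all 12 arrays of the series. The control lungs carried the Shh+/Cre genotype, in which Cre recombinase replaces one copy of Sonic hedgehog. The Yy1 mutant lungs were Yy1flox/flox with the same Cre allele, and the Dicer mutant lungs were Dicerflox/flox with the same Cre allele, so every specimen had a single intact Shh copy. Each mutant genotype contributed 4 arrays and had equal weight. The pooled difference is therefore the mean of the 2 mutant genotypes minus the mean of the controls, on the log2 scale. Both mutants were read against the same 4 controls, so a reading that is unusual on a control array enters both parts of the pooled difference.

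Lung buds grow out of foregut endoderm and branch as the epithelium answers signals from the mesenchyme around it. Fgf10 from the distal mesenchyme draws the epithelial tips outward through the receptor Fgfr2, Shh from the epithelium restrains Fgf10 and promotes smooth muscle, and Bmp4, Wnt and Spry2 set how far each tip extends. Sox9 marks the growing tips and Sox2 the stalks that become conducting airway. Yy1 is a zinc finger transcription factor, and Dicer cuts precursor hairpins into mature microRNAs. Shh-driven Cre acts in the lung epithelium, while the RNA here came from whole lung, which also holds mesenchyme, muscle, vessels and blood. Loss of either gene from this lineage is known for defective branching, but branching itself was not measured here. The labels do not say whether a specimen was 1 embryo or several, so p-values measure only the spread between specimens, which may be technical. In whole lung RNA, fewer cells of a type and less RNA per cell cannot be told apart.

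As a check of the labelled tissue, the lung epithelial gene Nkx2-1 read 9.17 to 9.46 on the controls and 8.15 to 9.06 on the mutants, and the lung mesenchymal gene Tbx4 read 9.83 to 9.85 and 9.84 to 10.03. On Yy1 mutant 2, Yy1 mutant 3 and Dicer mutant 4 the Y-linked genes stood apart from the other arrays. Uty read 8.52, 5.14 and 8.28 there, against 3.75 to 4.11 on the controls and 3.82 to 4.34 on the other 5 mutant arrays. The X-linked gene Xist read 8.55, 11.11 and 9.64 on the same arrays, against 11.15 to 11.31 on the controls. Yy1 mutant 3 was therefore near the controls for Xist and had the smallest rise in Uty. Yy1 mutant 2, Yy1 mutant 3 and Dicer mutant 4 are called the 3 Y-positive arrays, and many results that change without them are given both ways. Dicer mutant 3 had the highest level of the heart genes Myh6 (8.57, controls 6.38 to 6.79) and Tnni3 (8.07, controls 6.80 to 7.07). Dicer mutant 4 had the highest level of the liver gene Alb (7.75, controls 5.41 to 5.84).

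Of 22180 genes tested with limma, those with an adjusted p (Benjamini-Hochberg) below 0.05 were called higher or lower. In the pooled mutants 1885 genes were called, which is 8.5% of those tested. Of these, 925 were higher (4.17%) and 960 lower (4.33%). The median size of a called difference was 0.36, and 29 higher and 43 lower genes changed at least 2-fold. All 8 mutant arrays lay above all 4 controls in 533 genes (2.4%) and below them in 707 (3.19%). That is 1240 genes on 1 side (5.59%), of which 1047 were also called. Leaving out single arrays gave between 1296 calls, without control 1, and 1902, without Dicer mutant 1. Lower calls numbered 617 without control 1, and non-overlapping genes numbered 1887 without control 2. Leaving out the 3 Y-positive arrays together gave 930 calls, 455 higher and 475 lower, of which 897 were among the 1885. How much of that fall came from having fewer arrays was not tested. With all arrays kept and a covariate for sex-linked genes, 1403 genes were called, 701 higher and 702 lower.

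Where the mutants differ from each other, a pooled difference describes neither of them. The contrast of Yy1 mutant against Dicer mutant uses no control array, and it called 1101 genes (4.96%), 348 higher in the Yy1 mutant (1.57%) and 753 higher in the Dicer mutant (3.39%). Both contrasts called 368 genes, which is 19.5% of the pooled calls and 33.4% of the calls between mutants. Among the 208 of these that were higher in the pooled mutants, 159 stood higher in the Dicer mutant and 49 in the Yy1 mutant. Among the 160 that were lower, 117 were lowest in the Yy1 mutant and 43 in the Dicer mutant. The other 1517 pooled calls did not pass the test between mutants, which does not show that the mutants were alike. Calls between the mutants numbered 435 without the 3 Y-positive arrays and 726 without Dicer mutant 4 alone. With the covariate for sex-linked genes they numbered 1004.

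**Figure D1:**
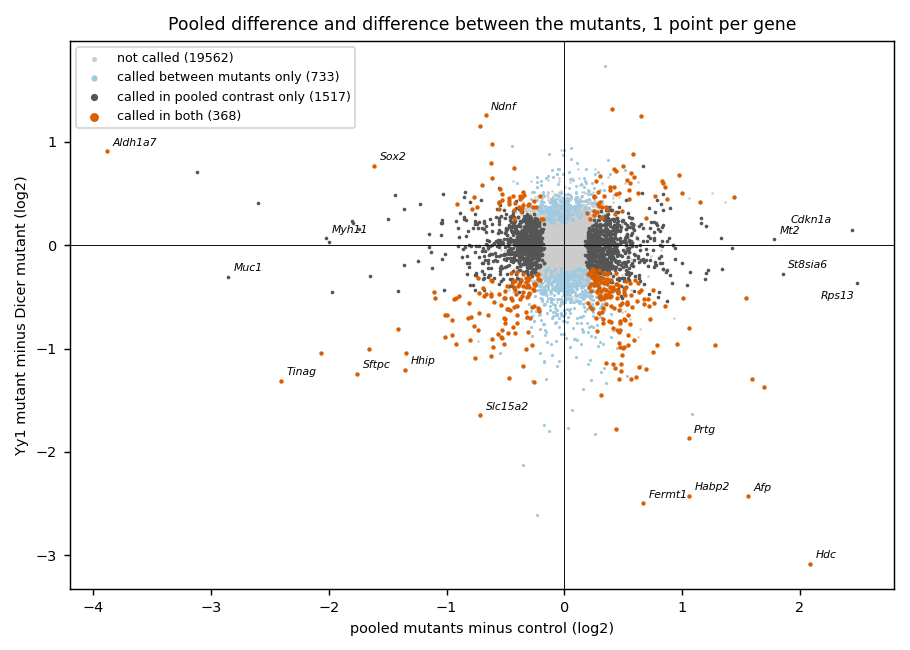
Each point is 1 of 22180 genes, with the pooled mutant minus control difference on the horizontal axis and the Yy1 mutant minus Dicer mutant difference on the vertical axis, both in log2 units. Cdkn1a, Mt2, Muc1 and Myh11 lie near the horizontal line at 0, while Hdc, Afp, Habp2 and Fermt1 lie far below it.

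Of the targeted genes, Dicer1 passed the pooled test and Yy1 did not. Dicer1, which encodes the ribonuclease itself, read 9.02, 8.85, 8.73 and 8.63 on the controls, 8.71, 8.47, 8.70 and 8.78 on the Yy1 mutants and 8.03, 8.27, 8.26 and 8.22 on the Dicer mutants. Only the Dicer mutants lay wholly below the controls, and the Yy1 mutants overlapped them. The pooled difference of -0.38 (SE 0.0825, adjusted p = 0.0113) was made of -0.14 in the Yy1 mutant and -0.61 in the Dicer mutant. Without the 3 Y-positive arrays it was not called (adjusted p = 0.0715, and 0.0024 to 1 over the alternatives). Yy1 read 9.01, 9.14, 8.98 and 9.01 on the controls, 8.87, 8.70, 8.85 and 8.95 on the Yy1 mutants and 8.96, 9.08, 9.0 and 8.97 on the Dicer mutants. All 4 Yy1 mutant arrays lay below the lowest control, by small margins, and the Dicer mutants overlapped the controls. The pooled difference of -0.11 (SE 0.0589, adjusted p = 0.303) was made of -0.19 in the Yy1 mutant and -0.03 in the Dicer mutant. Whether either probe set covers a floxed exon is not known.

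The largest falls included genes of the airway epithelium and of smooth muscle, and the gastric protease gene Cym. Aldh1a7, an aldehyde dehydrogenase, read 10.27, 10.24, 10.49 and 10.24 on the controls and from 5.62 to 7.06 (median 6.49) on the mutants. It fell 14.8-fold (log2 difference -3.88, SE 0.131, adjusted p = 3e-09), with no mutant array near a control, and the Dicer mutants were the lower group (-4.34, against -3.43 in the Yy1 mutants). Aldh1a1, its close relative that oxidises retinaldehyde, fell 3.49-fold. How far the probe sets of such near-identical paralogs respond to each other is not known. The membrane mucin Muc1 read 9.22, 9.63, 9.50 and 9.14 on the controls and 6.23 to 6.88 (median 6.50) on the mutants, and fell 7.23-fold (-2.85, SE 0.102, adjusted p = 3.29e-09). The mutants' lowest and highest values of Muc1 were closer together than the controls were to them. Cym, which encodes the milk-clotting gastric protease chymosin, read 10.66, 11.05, 10.30 and 10.51 on the controls and 7.05 to 8.52 (median 7.46) on the mutants, and fell 8.69-fold. Yy1 mutant 4 was the highest of the mutant arrays for Cym and still far below the controls.

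Cyp2f2, a cytochrome P450 of secretory airway cells, differed widely among controls, at 6.84, 9.24, 7.97 and 7.85. On the mutants it read 5.0 to 5.69, below every control, and it fell 6.09-fold (-2.61, SE 0.294, adjusted p = 0.000116). With all its probe sets averaged the difference was -1.47 (adjusted p = 0.000412). Scgb3a2, a secretoglobin of early airway cells, read 5.60, 6.45, 6.16 and 5.93 on the controls and 3.73 to 4.81 on the mutants, and fell (log2 difference -1.98, adjusted p = 8.27e-06). Its mutant readings lay below 5.48, the level under which the dimmest 30% of genes fall, so no exact fold is given. Some mutant readings of Cyp2f2, Tinag and Cftr also lay below it. Tinag, a basement membrane glycoprotein, fell 5.3-fold, and the cholecystokinin receptor Cckar fell 4.2-fold. In both, the Yy1 mutants were lower than the Dicer mutants, with differences from control of -3.06 and -1.75 for Tinag and -2.59 and -1.55 for Cckar. Sftpc, the surfactant protein C gene of distal epithelium, read 11.11, 11.91, 11.39 and 10.97 on the controls and 8.52 to 10.60 (median 9.74) on the mutants. It fell 3.39-fold, with -2.38 in the Yy1 mutant and -1.14 in the Dicer mutant, and no mutant array reached the lowest control.

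**Figure D2:**
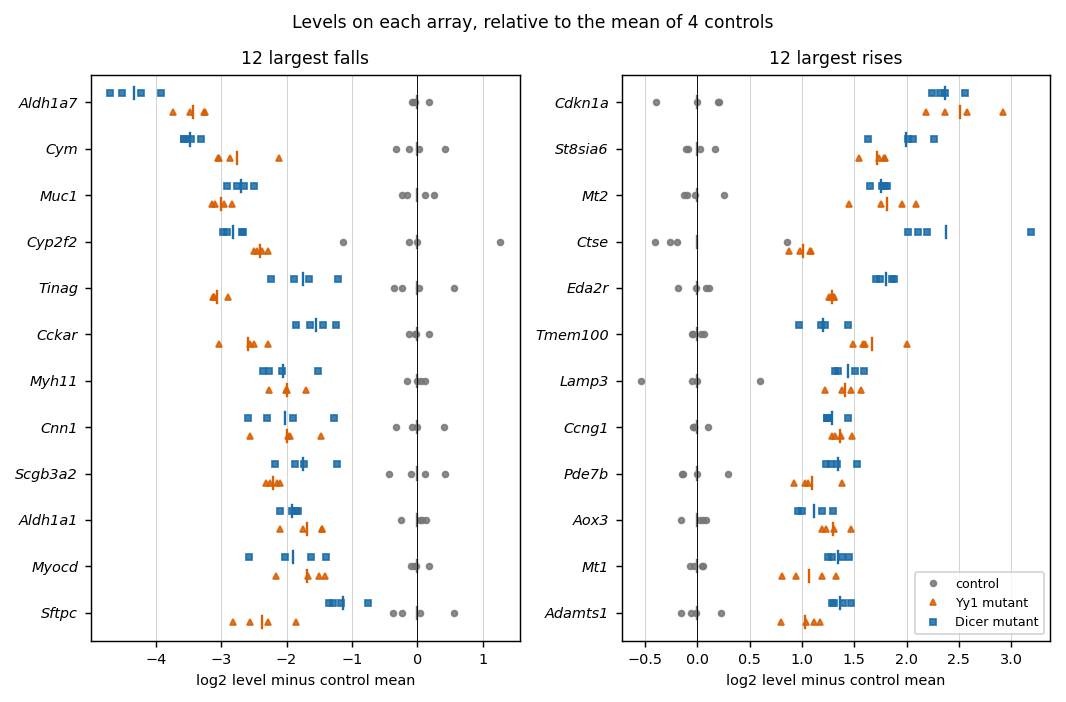
Log2 level on each array minus the mean of the 4 controls, for the 12 largest falls (left) and the 12 largest rises (right) among called genes whose 8 mutant arrays lie on 1 side of the controls. Circles are controls, triangles Yy1 mutants and squares Dicer mutants, the short vertical line is each group's mean, and the falls reach -3.88 in the pooled mean of Aldh1a7 where the rises reach 2.44 in Cdkn1a.

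The largest rises were led by Cdkn1a, the cyclin-dependent kinase inhibitor p21 and a target of p53. It read 7.20, 7.41, 6.81 and 7.40 on the controls and from 9.39 to 10.12 (median 9.57) on the mutants. It rose 5.43-fold (2.44, SE 0.136, adjusted p = 2.45e-07), by 2.51 in the Yy1 mutant and 2.37 in the Dicer mutant, and the groups did not overlap. St8sia6, a sialyltransferase, read 6.69, 6.55, 6.83 and 6.57 on the controls and 8.21 to 8.92 (median 8.45) on the mutants, and rose 3.61-fold (adjusted p = 2.1e-07). Its 4 control values stood closer together than those of Cdkn1a. Ctse, the aspartic protease cathepsin E, rose 3.23-fold, by 1.01 in the Yy1 mutant and 2.38 in the Dicer mutant. Control 1 read 7.65 for Ctse, just under the lowest mutant at 7.67, while the other controls read 6.39 to 6.60. The death receptor Eda2r rose by 1.54. Its control readings lay below 5.48, the level under which the dimmest 30% of genes fall, so no exact fold is given. Tmem100, a Bmp-induced membrane protein of vessels, rose 2.71-fold, Lamp3, a lamellar body protein, 2.68-fold and cyclin G1 (Ccng1) 2.51-fold. Pde7b, a cyclic AMP phosphodiesterase, rose 2.33-fold, the aldehyde oxidase Aox3 2.31-fold and the secreted protease Adamts1 2.29-fold.

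A larger difference than any of these, 2.48 in the ribosomal protein gene Rps13, was named after its values were seen, because it rested on 2 controls. Rps13 read 3.46 and 4.19 on controls 1 and 2 but 7.56 and 7.24 on controls 3 and 4, and control 3 overlapped the mutants at 7.48 to 9.07. Its adjusted p was 0.0287, and 0.102 without control 1, 0.0949 without control 2, 0.0531 without Dicer mutant 2, 0.0533 without Dicer mutant 4 and 0.0501 without Yy1 mutant 3. Without the 3 Y-positive arrays it was 0.137. Of the 16 ribosomal protein genes of a reference list, which does not hold Rps13, 0 were called, with a median pooled difference of 0.02 against -0.01 over all genes.

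Among 18 genes of lung branching, 9 fell, 4 rose and 5 were not called, beside 4.33% lower and 4.17% higher of all genes. These shares of all genes are the background for the counts of every list below. The median difference of the 18 genes was -0.32, against -0.01 over all genes. It was -0.51 in the Yy1 mutant and -0.11 in the Dicer mutant. Without control 1 the pooled median was -0.26. The test between the mutants called 12 of the 18, 11 of them higher in the Dicer mutant, so the pooled value of many of these genes averages unequal parts. These are textbook genes of branching, but they were listed with earlier results of these data known.

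Among genes of Fgf signalling, Fgf10 and Spry2 rose and Fgfr2 and Etv5 fell. Fgf10, the growth factor that attracts the epithelial tips, read 7.60, 8.39, 8.27 and 8.06 on the controls and from 8.63 to 8.98 (median 8.89) on the mutants. It rose 1.73-fold (0.79, SE 0.114, adjusted p = 0.000736), by 0.88 in the Yy1 mutant and 0.69 in the Dicer mutant, and control 2 was the control closest to the mutants. Its receptor gene Fgfr2 read 9.31, 9.36, 9.43 and 9.42 on the controls, 8.39 to 8.73 on the Yy1 mutants and 9.11 to 9.61 on the Dicer mutants. The Yy1 mutants lay below the controls and the Dicer mutants spread around them, so the pooled difference of -0.42 (adjusted p = 0.00926) was made of -0.84 in the Yy1 mutant and 0.01 in the Dicer mutant. Etv5, an Ets factor that Fgf signalling switches on, read 10.23, 10.35, 10.16 and 10.13 on the controls and 8.88 to 9.90 on the mutants, and fell 1.77-fold, with -1.17 in the Yy1 mutant and -0.47 in the Dicer mutant. All 8 arrays were below the controls, and with all its probe sets averaged the pooled difference was -0.47. Spry2, which damps Fgf signalling, had a pooled difference of 0.30 (adjusted p = 0.0178), with 0.05 in the Yy1 mutant and 0.56 in the Dicer mutant. The call depended on control 1 (adjusted p = 0.0714 without it), control 4 (0.0571) and the 3 Y-positive arrays (0.0898), in a range of 0.00763 to 1 over the alternatives. It was also lost with the covariate for sex-linked genes and without a genotype term.

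Shh, its receptor gene Ptch1 and its inhibitor gene Hhip fell. Shh, whose other allele carries the Cre in every specimen, read 6.25, 6.22, 5.94 and 6.08 on the controls and 5.53 to 5.91 (median 5.70) on the mutants. It fell 1.33-fold (-0.42, SE 0.0806, adjusted p = 0.0053), with the highest mutant just under the lowest control. Ptch1, the receptor that hedgehog signalling induces, read 10.29, 10.23, 10.25 and 10.29 on the controls and 9.49 to 9.91 (median 9.69) on the mutants, and fell 1.5-fold, with -0.64 in the Yy1 mutant and -0.53 in the Dicer mutant. The controls of Ptch1 lay within a narrow band that no mutant array approached. Hhip, an inhibitor that hedgehog signalling also induces, read 9.58, 9.84, 9.63 and 9.57 on the controls, 7.46 to 8.15 on the Yy1 mutants and 8.64 to 9.14 on the Dicer mutants. It fell 2.56-fold in the pooled mutants (-1.36, SE 0.123, adjusted p = 1.67e-05), with -1.96 and -0.75, and the 3 genotypes did not overlap. Gli1, a further target, differed by -0.11 (adjusted p = 0.317). In the Shh pathway list, 3 of 13 genes fell and 2 rose, the coreceptors Gas1 (0.45) and Boc (0.29), the latter named after its value was seen. Without control 3 the call of Boc was lost (adjusted p = 0.0569).

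Of the transcription factors of the epithelium, Sox2, Nkx2-1, Foxa2 and Mycn fell. Sox2, the factor of the stalks, read 7.79, 7.74, 7.43 and 7.38 on the controls, 6.04 to 6.70 on the Yy1 mutants and 5.33 to 5.98 on the Dicer mutants. It fell 3.06-fold (-1.61, SE 0.135, adjusted p = 8.89e-06), the largest fall of the branching list, with differences of -1.23 in the Yy1 mutant and -2.0 in the Dicer mutant. Nkx2-1, the defining factor of lung epithelium, read 9.28, 9.46, 9.23 and 9.17 on the controls and 8.15 to 9.06 (median 8.64) on the mutants, and fell 1.61-fold. Foxa2, a forkhead factor of endoderm, fell 1.66-fold, from 8.90, 8.69, 8.66 and 8.74 to between 7.62 and 8.35. All 8 mutant arrays lay below the controls in these 3 genes. Sox9, the factor of the tips, read 10.13 to 10.28 on the controls, 9.59 to 10.01 on the Yy1 mutants and 10.32 to 10.57 on the Dicer mutants, so the mutants lay on opposite sides and the pooled difference was -0.10 (adjusted p = 0.515). Mycn, a growth factor-responsive regulator of tip proliferation, differed by -0.72 in the Yy1 mutant and -0.12 in the Dicer mutant. Its pooled adjusted p was 0.00823, and 0.058 without the 3 Y-positive arrays (0.00201 to 1 over the alternatives).

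Signals made by the tips were higher or mixed. Bmp4, which limits outgrowth of the tips, read 10.55, 10.82, 10.77 and 10.56 on the controls, 10.81 to 11.16 on the Yy1 mutants and 11.34 to 11.47 on the Dicer mutants. It rose 1.42-fold (0.51, SE 0.075, adjusted p = 0.000835), and only the lowest Yy1 mutant array lay within the controls. Id2, an inhibitor of basic helix-loop-helix factors, rose by 0.47, with 0.10 in the Yy1 mutant and 0.85 in the Dicer mutant. Wnt7b, a Wnt ligand of the epithelium, read 7.13 to 7.18 on the Yy1 mutants, 7.60 to 7.95 on the controls and 7.68 to 7.94 on the Dicer mutants, and was not called in the pooled mutants (-0.22, adjusted p = 0.0857). Ctnnb1, which encodes the Wnt effector beta-catenin, differed by -0.10 and the Bmp receptor gene Bmpr1a by 0.03, and neither was called.

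The list of markers of all lung epithelium was lower. Of 27 measured members 17 fell, 0 rose and 10 did not pass, and the median was -0.43, with -0.45 in the Yy1 mutant and -0.32 in the Dicer mutant. Cldn6, a tight junction claudin of embryonic epithelium, read 9.76, 9.84, 9.64 and 9.63 on the controls and 8.52 to 9.04 (median 8.89) on the mutants, and fell 1.83-fold (adjusted p = 6.37e-05). Keratin 7 (Krt7) read 8.15, 7.93, 7.85 and 7.92 on the controls and 6.89 to 7.59 on the mutants, and fell by 0.66. Neither gene overlapped between controls and mutants. Further called members, named after their values were seen, were the transcription factors Elf5 (-0.93) and Elf3 (-0.73), the splicing regulator Esrp2 (-0.62), Krt19 (-0.67) and E-cadherin, Cdh1 (-0.60). The adhesion molecule Epcam, a defining epithelial marker, was not called, with a pooled difference of -0.17. It read 8.79 to 9.0 on the Yy1 mutants, below the controls at 9.25 to 9.40, and 9.41 to 9.50 on the Dicer mutants, above them. Between the mutants 13 of the 27 were higher in the Dicer mutant and 3 in the Yy1 mutant.

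Proximal airway markers, which were listed with earlier results of these data known, included several of the largest falls. Of 16 measured, 7 fell and 0 rose, among them Aldh1a7, Cyp2f2, Cckar, Scgb3a2, Aldh1a1 and Sox2. The median was -0.15, since the 9 not called had differences between -0.15 and 0.11, among them the secretoglobin Scgb1a1 (-0.12) and the ciliated cell factor Foxj1 (-0.15). Without the dimmest 30% of genes the median was -0.88. Fluid channels and transporters carry ions and fluid into or out of the fetal airway lumen. Of 15 measured, 6 fell and 0 rose, with a median of -0.18, or -0.09 without the 3 Y-positive arrays. Scnn1g, the gamma subunit of the epithelial sodium channel, read 8.16, 8.04, 7.83 and 7.77 on the controls and 5.88 to 6.62 (median 6.22) on the mutants, and fell 3.36-fold (adjusted p = 1.15e-06). The chloride channel Cftr read 7.56, 7.95, 7.58 and 7.44 on the controls and 5.25 to 6.81 on the mutants, and fell 3.15-fold, with -2.16 in the Yy1 mutant and -1.16 in the Dicer mutant. Ano1, a calcium-activated chloride channel, fell 2.66-fold. No mutant array overlapped the controls in any of these channels.

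Distal tip markers split. Of 15, 6 fell and 5 rose, with a median of -0.21 that was -0.47 in the Yy1 mutant and 0.12 in the Dicer mutant, and 11 of the 15 were called higher in the Dicer mutant than in the Yy1 mutant. Beside Bmp4, Id2 and Spry2, the factor Gata6 of foregut endoderm rose 1.44-fold, from 9.56, 9.48, 9.37 and 9.35 on the controls to 9.72 to 10.17 on the mutants, with no overlap. The number that rose was 3 without control 1, without control 4 and without the 3 Y-positive arrays, and the median was -0.14 without control 1 or control 2.

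Genes of the alveolar lineages went opposite ways. Of 14 genes of type 2 cells and surfactant, 8 rose and 2 fell, and of 12 type 1 genes 7 fell and 0 rose, with medians of 0.50 and -0.36. The 2 that fell in the first list were Muc1 and Sftpc. Lamp3 read 6.07, 6.72, 6.12 and 5.59 on the controls and 7.34 to 7.72 (median 7.55) on the mutants, and rose by 1.41 in the Yy1 mutant and 1.44 in the Dicer mutant. Sftpb, another surfactant protein gene and one named after its values were seen, read 9.05, 9.84, 9.08 and 9.13 on the controls, 9.75 to 10.87 on the Yy1 mutants and 11.37 to 11.68 on the Dicer mutants. It rose 3.01-fold in the pooled mutants, and only the lowest Yy1 mutant array lay under the highest control. The median of the type 2 list was 0.11 in the Yy1 mutant and 1.04 in the Dicer mutant, and 8 of its 14 genes were called higher in the Dicer mutant. Several of its members, such as the lysozyme Lyz2 (0.75) and the scavenger receptor Cd36 (1.04), are also expressed by macrophages, whose markers rose too, and the part of macrophages in these values was not tested. Among type 1 genes Rtkn2 fell 1.65-fold and Igfbp2, which binds insulin-like growth factors, 1.71-fold. With all probe sets of Rtkn2 averaged its difference was -0.33. Igfbp2 and Akap5, an anchoring protein, had differences of -1.16 and -1.15 in the Yy1 mutant and -0.38 and -0.33 in the Dicer mutant.

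Outside the epithelium, smooth muscle genes were lower in both mutants. Of 17 measured, 10 fell, 2 rose and 5 did not pass, with a median of -0.36 in the pooled mutants, -0.38 in the Yy1 mutant and -0.37 in the Dicer mutant. Between the mutants 1 of the 17 was called. Myh11, the smooth muscle myosin heavy chain, read 9.85, 9.73, 9.58 and 9.80 on the controls and 7.37 to 8.22 (median 7.70) on the mutants. It fell 4.06-fold (-2.02, SE 0.14, adjusted p = 1.5e-06), with -1.99 and -2.06, and the highest mutant array, Dicer mutant 3, was still far below the lowest control. Calponin 1 (Cnn1) read 9.34, 8.61, 8.85 and 8.93 on the controls and 6.34 to 7.66 on the mutants, and fell 4.01-fold. Myocd, the coactivator that switches on contractile genes, read 9.19, 8.91, 9.0 and 8.96 on the controls and 6.44 to 7.62 on the mutants, and fell 3.47-fold. The actin gene Actg2 fell 3.14-fold, and in none of the 4 did the groups overlap. The 2 that rose were Itga8, an integrin of contractile fibroblasts (0.69), and Pgm5 (0.48), which was named after its value was seen. Dicer mutant 3 was the highest of the Dicer mutants for Myh11, Cnn1, Actg2 and Myocd, and its heart markers were the highest of all arrays, while the part of heart tissue in these values was not tested.

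**Figure D3:**
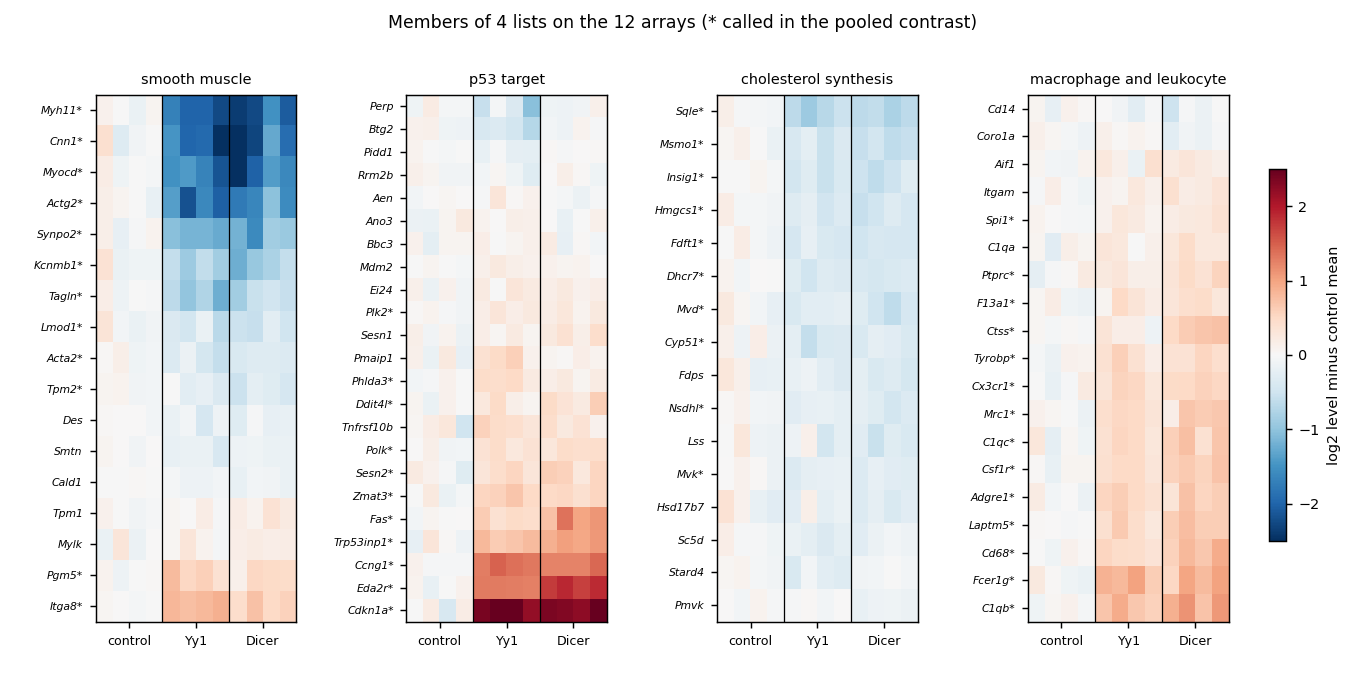
Log2 level minus the control mean on each of the 12 arrays (columns, 4 per genotype) for every measured member (rows) of 4 lists, with red above and blue below the controls and an asterisk on genes called in the pooled comparison. The blue block of Myh11, Cnn1, Myocd and Actg2 and the red block of Cdkn1a, Eda2r and Ccng1 extend over all 8 mutant arrays.

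Of 19 mesenchymal genes, 8 rose, 0 fell and 11 were not called. The median was 0.21, with 0.23 in the Yy1 mutant and 0.07 in the Dicer mutant, and 5 rose without the 3 Y-positive arrays. The proteoglycan Lum read 7.65, 7.54, 7.49 and 7.27 on the controls and 8.26 to 9.01 (median 8.68) on the mutants, and rose 2.24-fold (adjusted p = 6.49e-05). Decorin (Dcn), a related proteoglycan, rose 1.72-fold from 9.89, 10.07, 9.97 and 9.97 to between 10.61 and 11.04, and neither overlapped with the controls. The growth factor receptor Pdgfra rose by 0.38, as the mean of 0.67 in the Yy1 mutant and 0.10 in the Dicer mutant. The defining mesenchymal factors Tbx4 (0.08) and Foxf1 (-0.03) were not called. Of 15 cartilage genes 2 fell (13.3% called, beside 8.5% of all genes), Cnmd by 1.04 and Col2a1 by 0.47. Both were named once their values were known. There was 1 such call without control 4 and 1 without the 3 arrays.

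Of 26 endothelial genes 8 rose, 0 fell and 18 did not pass. The median was 0.18, and it was 0.05 in the Yy1 mutant and 0.35 in the Dicer mutant. Tmem100 had the largest difference of the list (1.44). The claudin Cldn5 read 7.93, 7.99, 7.84 and 7.65 on the controls and 8.08 to 8.39 on the mutants, and rose by 0.39 with no overlap. VE-cadherin (Cdh5) rose by 0.27, with adjusted p = 0.0659 without the 3 Y-positive arrays (0.000379 to 1 over the alternatives). The endothelial count was 5 without control 1, 3 without control 3, 3 without control 4 and 2 without the 3 arrays. Of 11 mesothelial genes, which mark the lung's outer lining, 3 rose and 8 were not called. The 3 were Lrrn4 by 0.57, Muc16 by 0.41 and Gpm6a by 0.33. The count was 5 without Dicer mutant 1 and 0 without the 3 arrays, where adjusted p was 0.0628 for Lrrn4, 0.0606 for Muc16 and 0.163 for Gpm6a, against alternatives from 0.00155, 0.0042 and 0.0149 up to 1. Gpm6a also lost its call without any one of 10 arrays (adjusted p = 0.0511 to 0.128), the exceptions being control 1 and Dicer mutant 1.

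Targets of p53, the transcription factor of the DNA damage and stress response, were higher. Of 23 measured, 11 rose, 0 fell and 12 did not pass, with a median of 0.24 in the pooled mutants and in the Yy1 mutant and 0.20 in the Dicer mutant. The 3 strongest were Cdkn1a, Eda2r and Ccng1. Eda2r read 5.21, 4.94, 5.11 and 5.23 on the controls, 6.38 to 6.43 on the Yy1 mutants and 6.83 to 7.0 on the Dicer mutants (pooled 1.54, SE 0.0636, adjusted p = 1.37e-08). Its 3 genotypes formed 3 separate bands. Ccng1 read 9.20, 9.06, 9.07 and 9.07 on the controls and 10.34 to 10.58 on the mutants (1.33, SE 0.0608, adjusted p = 4.09e-08). Trp53inp1 (0.87), the death receptor Fas (0.76) and Zmat3 (0.53) also rose and were named after their values were seen. Mdm2, the p53 ubiquitin ligase, differed by 0.11, the proapoptotic genes Bbc3 and Pmaip1 by 0.04 and 0.24, and Perp by -0.28, none of them called. The counts were 7 rises and 1 fall without the 3 Y-positive arrays, and the median was 0.32 without control 3 and 0.18 without control 4.

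Cell cycle genes were lower by small amounts. Of 21, 8 fell and 0 rose, with a median of -0.16, or -0.23 without control 4. The 3 called genes with the smallest p were Cdc6, which loads the replicative helicase (-0.37), Mcm5, a subunit of that helicase (-0.37), and Ccnd1, cyclin D1 (-0.33). Mcm5 read 10.30, 10.48, 10.14 and 10.12 on the controls and 9.79 to 9.96 on the mutants, so that all 8 were below the lowest control by a small margin. Ccnd1 differed by -0.51 in the Yy1 mutant and -0.15 in the Dicer mutant. Mki67, the proliferation marker, differed by 0.10 and was not called. The count that fell was 5 without control 1 and 4 without the 3 Y-positive arrays.

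Genes of cholesterol synthesis were lower in both mutants. Of 16 measured, 10 fell and 0 rose, all 16 differences were below 0, and the median was -0.32, with -0.27 in the Yy1 mutant and -0.36 in the Dicer mutant. Sqle, squalene epoxidase, read 8.75, 8.56, 8.55 and 8.52 on the controls and 7.69 to 8.05 (median 7.93) on the mutants, and fell 1.61-fold (-0.69, SE 0.0723, adjusted p = 5.96e-05). Insig1, the sterol sensor that holds the regulator in the membrane, fell 1.37-fold, and Dhcr7, the last enzyme of the pathway, 1.3-fold. All 10 called genes had every mutant array below every control, as did 3.19% of all genes. Leaving out the 3 Y-positive arrays left 6 falls.

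Hmgcs1, an early enzyme of the pathway and one named after its values were seen, read 10.13, 9.89, 9.90 and 9.86 on the controls and 9.37 to 9.71 on the mutants, and fell 1.32-fold (adjusted p = 0.003). Its promoter is shown because it is the only window of the pathway with a match to the sterol response element TCACNCCAC, searched on both strands. It spans chr13:119690101-119690350 on the plus strand of GRCm38.p6, as RefSeq gives the start site, and the capitals mark the match, 137 bases before the start.
Hmgcs1 promoter: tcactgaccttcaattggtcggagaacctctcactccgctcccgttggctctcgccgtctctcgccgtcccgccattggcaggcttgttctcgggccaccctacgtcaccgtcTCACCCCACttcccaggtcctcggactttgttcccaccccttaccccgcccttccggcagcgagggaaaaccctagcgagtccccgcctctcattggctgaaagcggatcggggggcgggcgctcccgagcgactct
Of 32851 windows of the same 250 bases, 1.05% held a match. For cholesterol synthesis, 12 of the 16 genes had 15 windows, and 1 window held it. The other windows lack only these letters, and nothing about the binding of a factor follows from that.

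Of 9 genes of fatty acid synthesis 4 fell and 0 rose, with a median of -0.21. Srebf1, the transcription factor of the pathway, read 7.94, 7.75, 7.71 and 7.67 on the controls and 7.23 to 7.56 on the mutants, and fell by 0.40. Its mutant arrays all lay below the lowest control. The carboxylase Acaca differed by -0.29 (adjusted p = 0.0786 without the 3 Y-positive arrays, and 0.00273 to 1 over the alternatives) and the synthase Fasn by -0.21. The call of Fasn was lost without Dicer mutant 2, 3 or 4, Yy1 mutant 1, 3 or 4, or control 1 or 2 (adjusted p = 0.0516 to 0.0999), or the 3 arrays (0.119), in a range of 0.00527 to 1. The fourth was the desaturase Scd1 (-0.37), named after its value was seen, whose call was lost without Dicer mutant 1, 3 or 4, Yy1 mutant 1, 3 or 4, or control 1 or 2 (adjusted p = 0.0613 to 0.152). Its adjusted p without the 3 Y-positive arrays was 0.109. The count was 2 without any one of Dicer mutants 3 and 4, Yy1 mutants 1, 3 and 4 and controls 1 and 2, and 1 without the 3 arrays.

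The metallothioneins, small proteins that bind zinc and copper, were among the largest rises. Mt2 read 8.41, 8.38, 8.76 and 8.48 on the controls and 9.95 to 10.60 (median 10.28) on the mutants, and rose 3.44-fold (1.78, SE 0.107, adjusted p = 5.14e-07), by 1.81 in the Yy1 mutant and 1.75 in the Dicer mutant. Mt1 read 7.83, 7.79, 7.92 and 7.91 on the controls and 8.67 to 9.31 on the mutants, and rose 2.3-fold. Neither gene overlapped between controls and mutants, and the cross-reaction of probe sets between these near-identical paralogs is not known. The promoter of Mt2 is shown because its known regulator, Mtf1, binds metal response elements, whose core TGCACNC or TGCGCNC was searched on both strands. The window spans chr8:94172368-94172617 on the plus strand of GRCm38.p6, from RefSeq, and the capitals mark 3 matches, 223 to 50 bases before the start, 0 of them overlapping.
Mt2 promoter: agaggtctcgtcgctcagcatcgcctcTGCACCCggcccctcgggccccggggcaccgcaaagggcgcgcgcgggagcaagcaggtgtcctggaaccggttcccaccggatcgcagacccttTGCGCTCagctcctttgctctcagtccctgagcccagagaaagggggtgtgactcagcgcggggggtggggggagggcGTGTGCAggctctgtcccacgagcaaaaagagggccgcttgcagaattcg
Of all 32851 windows 21.4% held at least 1 match and 1.26% held 3 or more. A match is a description of the letters and not of binding.

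The metallothioneins belong to a list of 18 genes of amino acid and unfolded protein stress, of which 3 rose and 4 fell, with a median of -0.01. Psat1, an enzyme of serine synthesis, read 8.61, 8.77, 8.59 and 8.48 on the controls and 7.98 to 8.33 on the mutants, and fell 1.4-fold without overlap. The others that fell were Sdf2l1 (-0.64), Phgdh (-0.34) and Atf4 (-0.24), and the other that rose was Dnajb9 (0.38), all named after their values were seen. The stress genes Ddit3 (0.20) and Atf3 (0.13) were not called. The count that fell was 2 without control 1 and 2 without the 3 Y-positive arrays. Of 12 hypoxia and glycolysis genes 1 rose, P4ha1 (0.26), and 1 fell, Hk2 (-0.24). Of 12 immediate early genes, which respond to handling, 1 rose, Dusp1 (0.32). In these last lists 16.7% and 8.33% were called, beside 8.5% of all genes. Several of the calls in these lists depended on single arrays. Calls were lost without control 1 for Phgdh (adjusted p = 0.0611) and Hk2 (0.0566), and without control 3 for Dnajb9 (0.0631). Dusp1 lost its call without control 1, 3 or 4 (0.0514, 0.059 and 0.0676). Atf4 lost its call without any one of 9 arrays (0.0571 to 0.129), and without the 3 Y-positive arrays (0.0768). Without the 3 Y-positive arrays adjusted p was 0.0697 for Phgdh, 0.0511 for P4ha1, 0.0823 for Hk2 and 0.138 for Dusp1.

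In the Fgf, Bmp and Tgf-beta, and Wnt lists members rose and fell. In the Fgf list, 5 of 19 rose and 4 fell, with a median of 0.08. Fgfr3, a receptor, read 7.63, 7.99, 7.73 and 7.55 on the controls and 6.62 to 7.14 on the mutants, and fell 1.76-fold without overlap. The count that rose was 3 without control 1, 2 without control 4 and 2 without the 3 Y-positive arrays. In the Bmp and Tgf-beta list, 6 of 21 rose and 5 fell, with a median of 0.03. Chrdl1, an antagonist of Bmp ligands, read 6.14, 5.88, 5.77 and 5.95 on the controls and 4.51 to 5.63 on the mutants, a difference of -0.89. Some of its mutant readings lay below 5.48, the level under which the dimmest 30% of genes fall, so no exact fold is given. The ligand Bmp7 fell by 0.35, while the Bmp-induced genes Id1 (0.33), Bambi (0.37) and Smad6 (0.28) rose, these 3 named after their values were seen.

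In the Wnt list, 6 of 24 fell and 2 rose, with a median of -0.03. Lgr6, a receptor for R-spondins, read 7.62, 7.64, 7.76 and 7.83 on the controls and 6.42 to 6.94 (median 6.63) on the mutants, and fell 2.05-fold (adjusted p = 1.15e-06) without overlap. Rnf43, a ubiquitin ligase that removes Wnt receptors, fell by 0.48. The R-spondin Rspo2 rose by 0.55, with 0.82 in the Yy1 mutant and 0.29 in the Dicer mutant, and the other that rose was Rspo3 (0.40), named after its value was seen. The common Wnt target Axin2 was not called (-0.16). In the Notch list 1 of 15 fell, Lfng (-0.49), and 1 rose, Notch2 (0.27), or 13.3% called beside 8.5% of all genes. In the retinoid list 4 of 16 fell and 0 rose: Aldh1a1, the retinol-binding protein receptor Stra6 (-0.57), and the receptors Rarb (-0.32) and Rarg (-0.26). The adjusted p of Stra6 was 0.077 without control 1, 0.0547 without control 4 and 0.0797 without the 3 Y-positive arrays, in a range of 0.00053 to 1. Rarg lost its call without Dicer mutant 1, 3 or 4, Yy1 mutant 2 or 4, or any one control (adjusted p = 0.0534 to 0.116). Without the 3 Y-positive arrays its adjusted p was 0.137. The retinoid count that fell was 2 without control 1, 2 without control 4 and 2 without the 3 arrays, the count that rose was 2 without Yy1 mutant 4, and the median was -0.03, or -0.10 without control 2.

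Basement membrane genes, the laminins, collagens and linkers under the epithelium, moved both ways. Of 21, 4 fell and 4 rose, with a median of -0.13 that was -0.25 in the Yy1 mutant and 0.09 in the Dicer mutant, and 9 were called higher in the Dicer mutant than in the Yy1 mutant. Beside Tinag, the laminin chain Lamb3 fell by 0.78, from 7.65, 7.58, 7.46 and 7.31 on the controls to between 6.43 and 7.12. The laminin chain Lama1 rose by 0.47, with 0.18 in the Yy1 mutant and 0.76 in the Dicer mutant, and only its Dicer mutants lay wholly above the controls. There were 1 rise and 4 falls without the 3 Y-positive arrays.

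Markers of macrophages and other leukocytes rose in both mutants. Of 19, 14 rose and 0 fell, with a median of 0.40. The list's mean level ran from 6.84 to 6.94 on the controls, from 7.13 to 7.30 on the Yy1 mutants and from 7.24 to 7.42 on the Dicer mutants. C1qb, a complement component made by tissue macrophages, read 8.08, 8.23, 8.29 and 8.15 on the controls and 8.76 to 9.31 (median 8.99) on the mutants, and rose 1.78-fold (adjusted p = 5.96e-05). The lysosomal marker Cd68 rose 1.51-fold and the lysosomal membrane protein Laptm5 1.46-fold. Controls and mutants did not overlap in these 3 genes, nor in the receptor Csf1r (0.52), a defining marker of these cells. There were 10 rises without the 3 Y-positive arrays.

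Other blood and tissue markers gave fewer calls, with 14.3% of erythroid and 10% of liver genes called beside 8.5% of all genes. Of 10 mast cell genes 3 rose, Hdc, Cpa3 (0.73) and Kit (0.28), while the proteases Cma1 (0.20), Tpsb2 (0.16) and Mcpt4 (0.03) were not called. The defining protease Mcpt4 read only 2.15 to 2.95 on the 12 arrays, near the lowest values of the table. Cpa3 and Kit were not called without the 3 Y-positive arrays (adjusted p = 0.0527 and 0.073, and up to 1 over the alternatives from 0.00022 and 0.00149), which leaves 1. Of 14 erythroid genes 2 rose, Slc4a1 (0.49) and Sptb (0.37), with 1 call without control 4 and 0 without the 3 arrays. Of 7 platelet genes 2 rose, Gp9 (0.46) and Pf4 (0.46), with 1 without the 3 arrays. Pf4 lost its call without any one array other than Yy1 mutant 1 and Dicer mutant 3 (adjusted p = 0.0595 to 0.126). Of 10 liver genes 1 rose, Afp, and of 8 neural genes Fabp7 (0.43) rose and Ret (-1.04) fell. The call of Fabp7 was lost without Dicer mutant 2 or 4, Yy1 mutant 1 or 4, or control 2, 3 or 4 (adjusted p = 0.0547 to 0.0938), or the 3 Y-positive arrays (0.112). Of 8 neuroendocrine, 11 heart muscle and 11 skeletal muscle genes 0 were called. Heart muscle genes had a median of 0.24, and their mean level ran from 6.81 to 6.99 on the controls but from 6.44 to 7.81 on the Dicer mutants and 6.55 to 7.42 on the Yy1 mutants, with the mutant specimens on both sides of the controls. Of 13 genes of oesophagus, stomach, thymus and thyroid, Cym and Krt4 fell and the factor Hhex rose by 0.41. Krt4, a keratin of stratified epithelium, differed by -0.49 and lost its call without control 4 (adjusted p = 0.0671, and 0.00812 to 1 over the alternatives). Its call was also lost with the covariate for sex-linked genes. The part of other tissues in the pooled differences was not tested.

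MicroRNA genes of 1 imprinted cluster were higher in both mutants. The cluster lies between Dlk1 and Dio3 on mouse chromosome 12, is expressed from the maternal chromosome, and was chosen as a set after its values were seen. An array of this kind reads the gene model of a microRNA, not the mature microRNA that Dicer makes. Of 43 microRNA genes measured there 18 rose, 0 fell and 25 were not called (41.9% higher), against 7 higher and 5 lower of the 440 elsewhere (1.59% higher). The medians were 0.38 in the cluster, with 0.40 in the Yy1 mutant and 0.33 in the Dicer mutant, and 0.02 elsewhere. Between the mutants 0 of the 43 were called. Without control 1, and without the 3 Y-positive arrays, 11 rose.

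Mature sequences of the called genes were taken from RefSeq (GRCm38.p6), and 34 were found for the 18 genes, with hairpins between chr12:109580233-109740577. The seed, bases 2 to 8, is in capitals. The first 4 are shown because they hold the 2 seeds that recur among the 32 different ones, and the last pair for 2 of the larger rises.
miR-379-5p: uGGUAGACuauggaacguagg
miR-1193-5p: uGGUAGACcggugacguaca
miR-376b-5p: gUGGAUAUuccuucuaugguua
miR-376c-5p: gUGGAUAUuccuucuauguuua
miR-300-3p: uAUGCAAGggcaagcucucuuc
miR-154-5p: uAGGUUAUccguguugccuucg
Mir379 read 4.32, 3.88, 3.86 and 4.10 on the controls and 4.42 to 5.07 on the mutants (0.70, adjusted p = 0.00296). Mir300 read 6.09, 6.07, 6.23 and 6.40 on the controls and 6.56 to 7.31 on the mutants (0.76, adjusted p = 0.00278). Mir154 read 4.99, 4.92, 5.04 and 4.69 on the controls and 5.33 to 5.84 on the mutants (0.61, adjusted p = 0.00185). In these 3 genes every mutant array lay above every control, though Mir379 and Mir154 were among the dim genes of the table. Mir376c differed by 1.07, on controls of 2.60 to 3.66 and mutants of 3.48 to 4.84 that overlapped, and its adjusted p was 0.0504 without control 2, 0.065 without control 4 and 0.0869 without the 3 Y-positive arrays, so that it was not called in any of the 3.

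Among long genes of the region, Rian, a noncoding RNA that hosts some of its small RNAs, read 10.02, 10.10, 10.20 and 10.29 on the controls and 10.55 to 10.84 on the mutants. It rose by 0.57 (SE 0.0707, adjusted p = 0.00023) with no overlap. Meg3, a neighbouring noncoding RNA, differed by 0.18 and Dio3 by -0.17, and neither was called. Dlk1 was called higher (0.24, adjusted p = 0.0479), but not without any one of 10 arrays (0.0563 to 0.131) or without the 3 Y-positive arrays (0.186). Of 12 genes of the microRNA machinery 3 fell, Dicer1, Ran and Ago1, and 1 rose, Tnrc6a (0.30). Ran, which carries precursor hairpins out of the nucleus with exportin, differed by -0.32 and Ago1, an Argonaute protein, by -0.24. Without control 1 their adjusted p was 0.0566 and 0.0657, and Ago1 had 0.0551 without control 2. Without the 3 arrays it was 0.0806 for Ran and 0.115 for Ago1, in ranges of 0.00594 to 1 and 0.00574 to 1. The count that fell was 1 without control 1 and 0 without the 3 arrays, and the count that rose was 0 without Yy1 mutant 3, control 2, 3 or 4, or the 3 arrays. Of 13 known targets of the microRNA let-7, 1 rose, Plagl1 (0.29), and 2 fell, Mycn and Dicer1, the latter count being 0 without the 3 arrays. Lin28b (0.07) and Hmga2 (0.15) were not called.

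**Figure D4:**
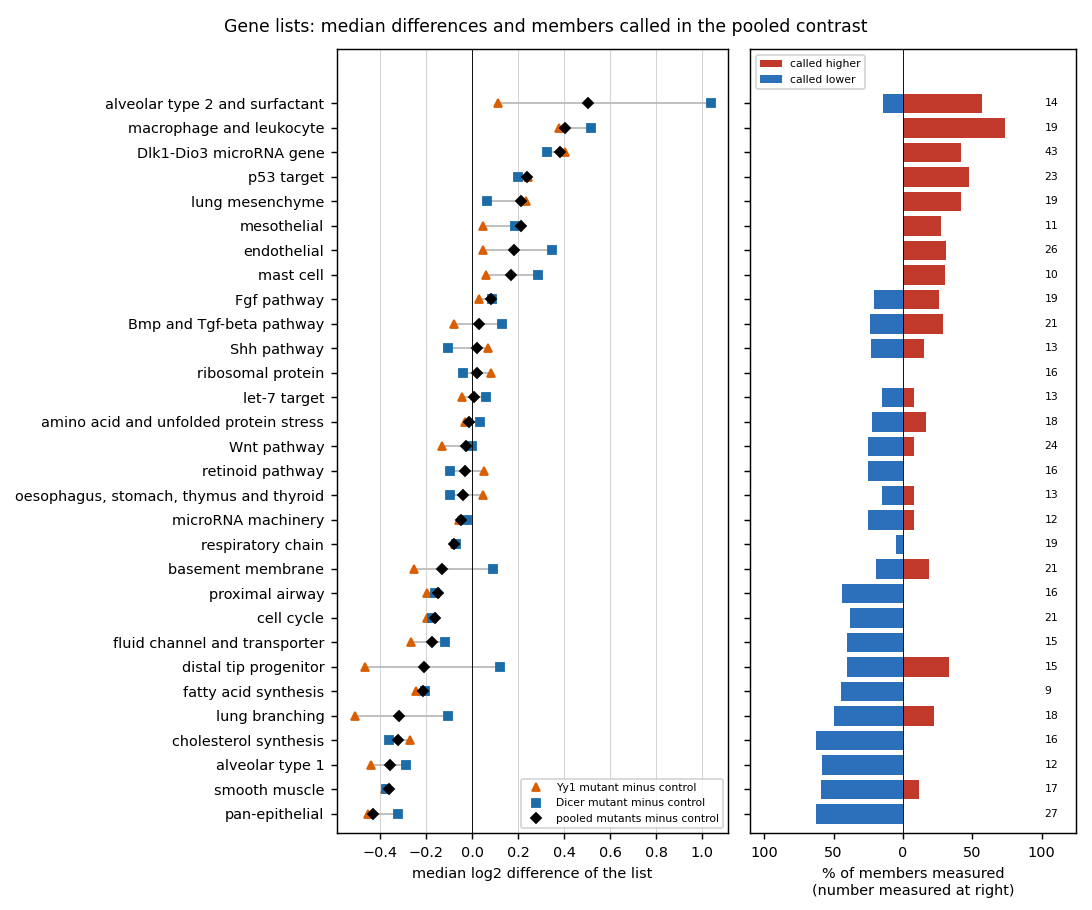
Left, the median log2 difference of each gene list in the pooled mutants (diamonds), the Yy1 mutant (triangles) and the Dicer mutant (squares), and right, the percentage of measured members called higher (red, to the right) or lower (blue, to the left), for lists with at least 3 calls and for the reference lists of ribosomal proteins and the respiratory chain. The mutants' medians nearly coincide for smooth muscle and cell cycle and lie far apart for type 2 (0.11 and 1.04), distal tip and branching genes.

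The genes called in both contrasts with the largest difference between the mutants show where the pooled value describes neither group. Hdc, which makes histamine, read 5.35, 6.04, 5.47 and 5.65 on the controls, 5.85 to 6.52 on the Yy1 mutants and 8.29 to 9.69 on the Dicer mutants. Its pooled rise of 2.09 was made of 0.55 and 3.63, and the Yy1 mutants overlapped the controls. Afp, alpha-fetoprotein, read 5.87 to 6.41 on the controls, 6.30 to 6.49 on the Yy1 mutants and 8.33 to 9.69 on the Dicer mutants (pooled 1.56, made of 0.34 and 2.77). Habp2, a hyaluronan-binding serine protease, had a pooled difference of 1.06 from -0.15 and 2.27, and Prtg, the cell surface protein protogenin, 1.05 from 0.12 and 1.99. Fermt1, an integrin activator of epithelium, moved in opposite directions. It read 6.67, 7.01, 6.76 and 6.45 on the controls, 6.04 to 6.21 on the Yy1 mutants, below all of them, and 8.41 to 8.85 on the Dicer mutants, above all of them (-0.58 and 1.92).

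Among the pooled falls, 3 solute carriers lay below the controls on every Yy1 mutant array, while the means of the Dicer mutant lay above those of the controls. The peptide transporter Slc15a2 had differences of -1.54 and 0.11, the metal transporter Slc39a8 of -0.92 and 0.40, and the monocarboxylate transporter Slc16a12 of -1.12 and 0.17. For Slc39a8 the Yy1 mutants read 7.42 to 7.59, the controls 8.31 to 8.50 and the Dicer mutants 8.68 to 8.90, 3 bands without overlap. Its pooled difference of -0.26 lost its call without control 2 (adjusted p = 0.0577), control 3 (0.0688) or the 3 Y-positive arrays (0.12), in a range of 0.0064 to 1. Ndnf, a secreted neurotrophic factor, was low in the Dicer mutant alone, at 7.48 to 8.70 against 9.11 to 9.65 on the other 8 arrays. Its pooled call (-0.67, adjusted p = 0.0344) was lost without Dicer mutant 1, Yy1 mutant 1, Yy1 mutant 4 or any one control (adjusted p = 0.0552 to 0.102, and 0.00551 to 1 over the alternatives). The call of Ndnf was also lost without the 3 Y-positive arrays, with array weights, with a replicate block and with another variance prior. With the mutants fitted as 1 group without a genotype term, adjusted p was 0.126 for Hdc, 0.155 for Afp, 0.333 for Habp2, 0.194 for Prtg and 0.601 for Fermt1. That fit kept 73 of the 97 named pooled calls. Calls were also lost for Dicer1, Fgfr2, Spry2, Id2, Mycn, Akap5, Pdgfra, Muc16, Gpm6a, Cdh5, Kit, Ccnd1, Rarb, Lama1, Ago1, Slc15a2, Slc39a8, Slc16a12 and Ndnf.

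**Figure D5:**
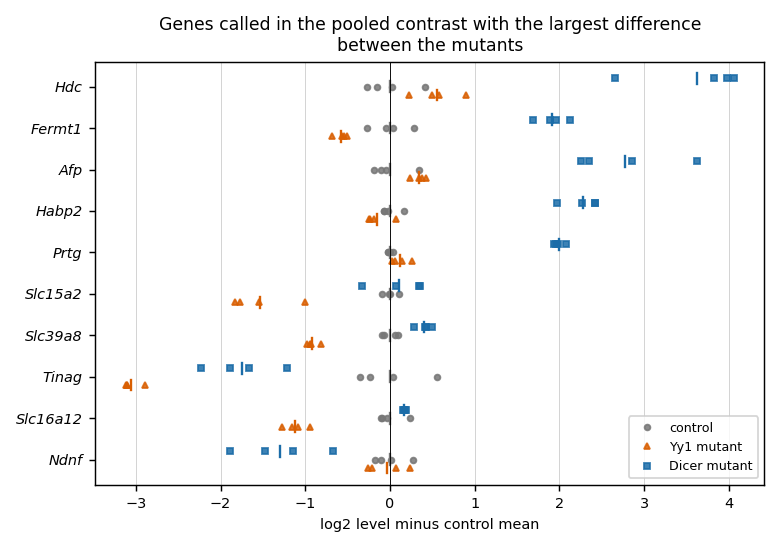
Log2 level on each array minus the control mean for the 10 genes called both in the pooled comparison and between the mutants with the largest difference between the mutants, 5 with a pooled rise and 5 with a pooled fall. In the 9 genes other than Tinag one mutant (triangles for Yy1, squares for Dicer) lies close to the controls (circles) or on the other side of them, and in Tinag both lie below.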

How the data were processed

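Total RNA of whole lung at E14.5 was measured on 12 one-colour arrays, 4 per genotype. The deposited values are log2 intensities as the authors' processing left them. That the base is 2 was inferred from their range (1.10 to 13.6), and how they were summarised and normalised, and with which software, is not given in the sources used here. Array medians lay between 5.99 and 6.08, and no normalisation was added. The number of arrays limits the precision.

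Of 41345 probe sets, 23521 carried 1 gene symbol in the platform annotation, 1814 several, and 16010 were not listed. Each of 22180 genes was represented by its single-symbol probe set with the highest mean over the 12 arrays. limma 3.58.1 in R 4.3.3 fitted the 3 genotypes in 1 model (9 residual degrees of freedom), with the contrasts of the mean of both mutants minus the controls and of Yy1 mutant minus Dicer mutant. Adjusted p-values are Benjamini-Hochberg values over all genes, two-sided. SE is limma's moderated standard error. A fold change is 2 raised to the size of the log2 difference. On simulated data with the real means, the pooled contrast recovered 71.6% of genes shifted by 0.5, 97% by 1 and 100% by 2. It also called 15 genes that were not shifted. The simulated noise was independent and the shift was the same in both mutants, so these rates need not hold where the mutants differ.

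Genes named with full values were the targeted genes, the branching list, the 12 largest rises and 12 largest falls whose groups did not overlap, from each list with at least 3 calls the called genes of smallest p, up to 3, and, of genes called in both contrasts, the 5 each way with the largest difference between the mutants. Predicted, microRNA, small RNA, histone and sex-linked genes and pseudogenes were left out of the largest differences, and other members are named as chosen after their values were seen or by their pooled difference alone. Members and lists, 41 in number, were chosen with earlier results of these data known, and the set of microRNA genes was added after its values were seen. Alternatives were other normalisations, filters, probe set rules, variance priors, array weights, a minimum change of 1.5-fold, no genotype term, a replicate block, a covariate for sex-linked genes, and arrays left out.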

Additional observations from a re-analysis of the deposited data

Results flagged for a closer look

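Single arrays stood apart from the other 3 of their genotype in 12 of 309 groups of 4 checked over 103 named genes, or 3.88%, where chance gives about 1 in 20. Among the controls these were control 1 for Ctse (7.65), Wnt7b (7.95) and Ccng1 (9.20), control 2 for Gli1 (7.66) and Rtkn2 (7.73), and control 3 for Aldh1a7 (10.49). Among the mutants they were Yy1 mutant 1 for Tinag (5.45), Yy1 mutant 2 for Id2 (10.11), Dicer mutant 2 for Gata6 (10.17) and Laptm5 (6.92), Dicer mutant 3 for Ctse (9.98) and Dicer mutant 4 for Ccng1 (10.54).

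The mutants differed from each other in 44 named genes by limma's test of the difference (adjusted p under 0.05), given here as the Yy1 mutant minus the Dicer mutant in log2 units. Among branching genes and factors the differences were 0.77 for Sox2, 0.47 for Dicer1, -0.43 for Bmp4, -0.46 for Foxa2, -0.49 for Nkx2-1, -0.51 for Spry2, -0.60 for Mycn, -0.65 for Sox9, -0.68 for Wnt7b, -0.70 for Etv5, -0.75 for Id2, -0.85 for Fgfr2 and -1.20 for Hhip. In airway and alveolar epithelium they were 0.91 for Aldh1a7, -0.47 for Krt7, -0.78 for Igfbp2, -0.82 for Akap5, -1.0 for Cftr, -1.04 for Cckar, -1.24 for Sftpc, -1.31 for Tinag and -1.37 for Ctse. In mesenchyme, vessels, mesothelium and mast cells they were 0.57 for Pdgfra, 0.47 for Tmem100, 0.27 for Itga8, -0.30 for Cdh5, -0.41 for Muc16, -0.45 for Kit, -0.61 for Gpm6a and -3.08 for Hdc. In signalling, cell cycle and matrix they were 0.53 for Rspo2, -0.28 for Bmp7, -0.36 for Ccnd1, -0.40 for Rnf43, -0.51 for Eda2r and -0.58 for Lama1. The genes picked for the largest such differences had 1.25 for Ndnf, -1.29 for Slc16a12, -1.32 for Slc39a8, -1.65 for Slc15a2, -1.87 for Prtg, -2.42 for Habp2, -2.43 for Afp and -2.49 for Fermt1. Without the 3 Y-positive arrays 15 of the 44 were no longer called: Aldh1a7, Bmp7, Ccnd1, Cdh5, Ctse, Dicer1, Gpm6a, Itga8, Muc16, Ndnf, Nkx2-1, Rnf43, Sox2, Tinag and Tmem100. Of these, Bmp7, Itga8, Muc16, Nkx2-1 and Tmem100 also lost the call without single arrays.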

How the results depend on the processing

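No named gene changed direction after being called, over the alternatives run. Of 97 named genes called in the pooled mutants, 66 kept the call under all alternatives other than the minimum change of 1.5-fold, and 30 under that one too. With the covariate for sex-linked genes 91 of the 97 kept it, and Spry2, Krt4, Stra6, Slc39a8, Fasn and Gpm6a lost it. Pooled calls numbered 1885 as reported, 51 with the minimum change, 1205 without a genotype term and 1403 with the covariate for sex-linked genes. They numbered 930 without the 3 Y-positive arrays, and 1296 to 1902 with single arrays left out. Calls between the mutants numbered 1101 as reported, 1806 with array weights, 33 with the minimum change, 435 without the 3 arrays, and 726 to 1180 with single arrays left out. Genes whose groups did not overlap numbered 1240, and 1305 to 1887 with single arrays left out, where fewer arrays overlap less often by construction. Without the dimmest 30% of genes the median was -0.88 for proximal airway and -0.47 for sex-linked genes (1.16 as reported, with 0 called), where fewer genes were tested, and without the 3 arrays it was -0.088 for fluid channels. With single arrays left out, medians ran from -0.22 to -0.14 for distal tip, 0.18 to 0.32 for p53 targets, -0.23 to -0.14 for cell cycle, -0.10 to -0.0075 for the retinoid pathway and -0.33 to -0.26 for branching. Beyond construction, the cause was not tested. The median of all genes was -0.01 as reported and -0.03 with quantile normalisation or equal array medians.

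Replicate numbers were shared across genotypes, but the labels do not say that they pair specimens. Same-numbered arrays had correlations of -0.161 to 0.19 in their deviations from the group means, against -0.26 to 0.214 for other numbers. Of the same-numbered pairs 3 of 12 were over 0.1, and 5 of 12 arrays correlated best with their own number. These values do not settle whether the numbers pair specimens, and the numbers were not taken as pairs. With a replicate block 1739 genes were called in the pooled mutants and 997 between the mutants.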
